A study of Mus musculus with 13 samples.

Results

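Of the 300755 open chromatin peaks called in single nuclei of the mouse kidney, 3124 were open mainly in the proximal tubule, in its convoluted and in its straight segment alike. A peak was kept when it reached a CPM of 10 in both proximal clusters and when the lower of the 2 proximal values was at least 3 times the highest value of the 11 other main clusters. An open call is a pair of a nucleus and a peak in which that nucleus has a fragment, and CPM, scaled as in sequencing counts, gives the open calls of a peak relative to all open calls of the cluster, summed over the 5 samples. Another 18273 peaks passed the CPM minimum in both proximal clusters but not the fold, and they serve as the comparison below. They are called widely open for short, though the number of clusters in which each was open was not counted. The values of the proximal and the other clusters chose these peaks, so their proximal level is a description and was not tested.

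Nuclei came from mouse kidneys and were profiled by single nuclei ATAC-seq (snATAC-seq), in which Tn5 transposase tags open DNA, in 5 samples: P0 replicates 1 and 2, 1 sample of P21 and P56 replicates 1 and 2. The labels give no genotype or treatment, the strain of these mice is not given in the sources used here, and the P21 and P56 samples were grouped as adult. Per the protocol, the older mice were perfused before the kidneys were taken and the P0 mice were not, so stage and preparation cannot be told apart. The authors' clusters PT and PT2, called PCT (proximal convoluted tubule) and PST (proximal straight tubule) here, held 7412 and 1943 nuclei, with 547, 557, 1551, 2459 and 2298 PCT nuclei and 83, 112, 266, 657 and 825 PST nuclei in P0 replicates 1 and 2, P21 and P56 replicates 1 and 2. Open calls per sample ranged from 3345160 to 17287332 in PCT and from 825710 to 9494152 in PST, and adult samples gave 83.4% and 89.1% of them. The number of animals behind each sample is not stated, so p-values measure the spread between these samples. Between 24 and 73 barcodes were shared by any pair of samples.

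The labels of the clusters were checked on marker genes, as CPM summed over the peaks nearest to each gene. The convoluted segment markers Slc34a1, Slc5a2, Slc5a12 and Slc6a19 were all higher in PCT than in PST, for example 308 against 110.1 at Slc34a1, and the straight segment markers Kap, Slc7a13, Slc22a30, Slc5a1 and Cyp7b1 were all higher in PST, with 351 against 28.2 at Kap. At Cyp7b1 the stroma 2 cluster was higher still, at 193 against 90.8 in PST. Genes of both segments (Lrp2, Hnf4a, Slc13a3 and Akr1c21) were higher in both proximal clusters than in any other main cluster.

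The proximal tubule takes back most of the glucose, phosphate, amino acids, bicarbonate and water of the filtrate. It also secretes organic ions, makes glucose, burns fatty acids and takes up filtered protein by endocytosis. Its identity depends on transcription factors of the HNF1 and HNF4 families, which bind DNA at enhancers and promoters of transporter and metabolic genes. Open chromatin marks DNA that such factors can reach, and peaks away from transcript starts are often enhancers.

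Sequences of 6 of the peaks are shown because they are among those most open in both segments and hold a match to an HNF1 or HNF4 motif or to a part of one, or, for the Fras1 peak, the full HNF4 motif together with a large difference between stages. Each is the central 300 bases of the peak on the plus strand of mm10 (GRCm38, from the RefSeq genome), capitals mark the match, and the gene is that of the nearest protein-coding transcript start. The Klf15 peak lies between genes and holds AAAGTCCA, the core of the HNF4 motif. The Chd2, first Hnf4a and Acsm2 peaks hold GTTAAT, only a part (half-site) of the HNF1 motif, and the latter 2 lie in introns. GTTAAT is common, as 11.99% of all peaks held it in the central 300 bp. The second Hnf4a peak, also intronic, holds a longer HNF1 sequence on the minus strand. The Fras1 peak, in an intron, holds the HNF4 motif on the minus strand.
Klf15 peak, chr6:90450970-90451269: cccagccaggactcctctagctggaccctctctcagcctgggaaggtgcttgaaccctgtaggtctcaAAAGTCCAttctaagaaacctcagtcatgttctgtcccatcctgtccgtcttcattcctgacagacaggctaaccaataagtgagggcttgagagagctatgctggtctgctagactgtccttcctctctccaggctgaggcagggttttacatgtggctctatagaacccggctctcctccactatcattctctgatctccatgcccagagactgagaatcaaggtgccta
Chd2 peak, chr7:73589054-73589353: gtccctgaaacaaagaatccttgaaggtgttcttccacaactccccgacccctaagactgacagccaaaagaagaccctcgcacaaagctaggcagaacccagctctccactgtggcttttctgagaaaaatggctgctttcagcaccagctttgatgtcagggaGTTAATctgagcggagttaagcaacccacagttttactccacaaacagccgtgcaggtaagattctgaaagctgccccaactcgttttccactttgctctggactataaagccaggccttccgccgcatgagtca
Hnf4a peak, chr2:163540865-163541164: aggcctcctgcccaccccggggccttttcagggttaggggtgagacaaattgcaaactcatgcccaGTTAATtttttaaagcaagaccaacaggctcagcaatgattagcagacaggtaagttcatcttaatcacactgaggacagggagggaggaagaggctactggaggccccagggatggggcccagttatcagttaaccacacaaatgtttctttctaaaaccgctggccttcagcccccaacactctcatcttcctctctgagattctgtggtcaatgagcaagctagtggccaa
Hnf4a peak, chr2:163560388-163560687: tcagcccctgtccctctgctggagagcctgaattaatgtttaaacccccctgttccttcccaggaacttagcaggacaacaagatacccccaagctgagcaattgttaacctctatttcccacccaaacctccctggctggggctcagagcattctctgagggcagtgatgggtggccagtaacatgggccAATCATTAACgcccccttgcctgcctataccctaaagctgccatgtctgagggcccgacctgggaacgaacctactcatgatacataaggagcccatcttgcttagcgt
Acsm2 peak, chr7:119594584-119594883: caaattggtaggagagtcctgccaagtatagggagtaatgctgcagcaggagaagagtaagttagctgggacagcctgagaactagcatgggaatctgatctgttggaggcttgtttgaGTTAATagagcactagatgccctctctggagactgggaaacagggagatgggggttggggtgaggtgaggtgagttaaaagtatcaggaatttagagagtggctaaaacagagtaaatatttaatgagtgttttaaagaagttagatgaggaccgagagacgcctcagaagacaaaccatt
Fras1 peak, chr5:96639549-96639848: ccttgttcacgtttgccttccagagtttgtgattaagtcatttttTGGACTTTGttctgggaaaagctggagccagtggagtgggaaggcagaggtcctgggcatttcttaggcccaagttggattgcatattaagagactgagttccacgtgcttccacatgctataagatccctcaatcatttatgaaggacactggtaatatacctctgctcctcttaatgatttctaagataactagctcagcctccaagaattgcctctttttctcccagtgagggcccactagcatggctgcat

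In these peaks the lower proximal level had a median of 17.8 CPM, from 10.0 to 72.2, and 1271 of the 3124 peaks reached 20 CPM. The median peak was open in 12.3% of PCT nuclei and 18.01% of PST nuclei. The most open peak in each segment reached 54.2% of PCT nuclei and 62.2% of PST nuclei. Such shares depend on depth, and PST nuclei had a higher median number of open peaks in every sample. Scaled as CPM, the median over the peaks was 20.5 in PCT and 20.9 in PST. The lower proximal value was a median of 4.29 times the highest other cluster, and 8 peaks passed 10 times. That highest other cluster was most often the immune cluster (1143 peaks), then intercalated cells (IC, 677) and the distal convoluted tubule (DCT, 584). The immune cluster is also the shallowest of the 11, with 386 nuclei and 1368574 open calls, so that its value for a single peak rests on few calls. The order pools the stages, and clusters differ in their mix of stages. Podocytes had 307 and 362 nuclei at P0 and 47, 157 and 39 in the P21 sample and P56 replicates 1 and 2. DCT had 51, 57, 101, 307 and 434. In those adult samples the median over the peaks was 5.19, 4.21 and 8.25 CPM in podocytes. In DCT it was 2.70, 3.30 and 3.43. The order within a stage was not counted.

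**Figure D1:**
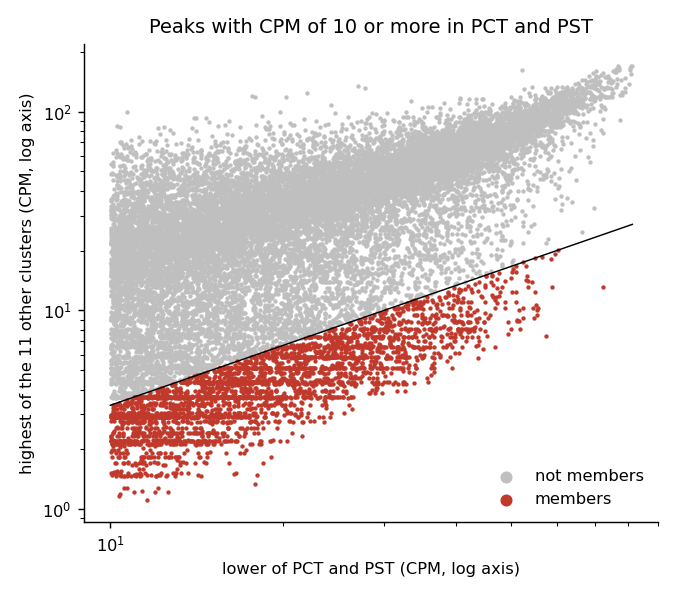
Each point is a peak with at least 10 CPM in both PCT and PST. The horizontal axis gives the lower proximal CPM and the vertical axis the highest CPM of the 11 other main clusters, set to 0.5 where lower, both on log axes. The line is the 3-fold limit, and the 3124 peaks kept (red) lie under it, while the 18273 others (grey) lie above it.

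The peak most open in both segments covered the start of Pck1 (chr2:173152628-173153670), the cytosolic enzyme that commits carbon to gluconeogenesis. Its CPM in PCT was 70.5, 68.2, 94.4, 96.1 and 93.1 in P0 replicates 1 and 2, P21 and P56 replicates 1 and 2, and in PST it was 48.4, 57.4, 90.1, 88.7 and 66.1. No other main cluster passed 13.2 CPM there. The next 7 by lower proximal CPM were near Fam107a (60.2 CPM), Fnip2 (59.5), the water channel gene Aqp1 (58.8, at its start), the transcription factor gene Klf15 (58.7), the GABA and betaine transporter gene Slc6a13 (57.4), Chd2 (56.6) and Ezr (55.7), which encodes a linker of brush border membrane and actin. Of these 8, 4 lay close to the fold limit, as Fam107a, Fnip2, Klf15 and Chd2 were 3.00, 3.08, 3.23 and 3.04 times their highest other cluster.

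The widest gap to other clusters among peaks of at least 20 CPM was at an intronic peak near Akap9 (chr5:4083562-4084412), at 9.21 times. The next were near Deptor (an inhibitor of mTOR kinase, 9.20 times), Grin3a (8.55 times), Lpar2 (8.40 times) and at the start of Slc17a3 (8.26 times), a transporter of organic anions and phosphate. At the limits of the rule, the members closest above the CPM minimum included peaks near Srl and Pappa and the peaks closest below it were near Wnk2, Slc6a18 and Mep1a, all of which round to 10.0 or 9.99 CPM. The members closest above the fold were near Spint1, Rbm39 and Suclg1 and the peaks closest below it were near Ndel1, Gm7879 and C530008M17Rik, all at 3.00 times after rounding.

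The rule was then applied to 4 samples and read in the fifth, as a description in a sample whose open calls were not summed for the choice. Its nuclei still took part in the authors' clustering and peak calling, which used all samples. With P0 replicate 1 held out, 2374 of 2596 chosen peaks (91.4%) had a lower proximal CPM above each of the 11 other clusters of that sample, against 7.76% of all peaks. With P0 replicate 2 held out, this was 2620 of 2848 (92.0%, against 7.52%). With the P21 sample held out, it was 2632 of 3137 (83.9%, against 4.63%). With P56 replicates 1 and 2 held out, it was 2674 of 2755 (97.1%, against 7.29%) and 2979 of 3432 (86.8%, against 5.7%). The lowest share was that of the P21 sample. Of the peaks past the CPM minimum in both proximal clusters, which are a closer comparison than all peaks, between 25.4% and 30.0% did so. That minimum was read on all samples, the held-out one included, and these peaks include the 3124 members. Against the sum of the other clusters of the held-out sample, at 3 times, the shares were 94.8%, 94.9%, 88.3%, 99.3% and 93.4% in the same order, a threshold chosen after seeing the data, against 9.78%, 8.96%, 6.14%, 10.7% and 8.17% of all peaks. In the closer comparison, the peaks past the CPM minimum in both proximal clusters, they were 31.6%, 30.2%, 21.9%, 27.8% and 24.8%.

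In PCT, these peaks took 5.52%, 5.64%, 7.19%, 7.70% and 8.06% of all open calls in P0 replicates 1 and 2, P21 and P56 replicates 1 and 2. In PST they took 4.95%, 5.15%, 7.48%, 7.72% and 7.41%. The 11 other clusters had between 0.198% and 0.827% at P0 (median 0.407% over 22 pairs of cluster and sample) and between 0.438% and 2.89% in the adult samples (median 1.18% over 33 pairs). The highest of these was the stroma 1 cluster of the P21 sample, and the immune and podocyte (Podo) clusters of P56 replicate 2 reached 2.76% and 2.53%. The median over these clusters was higher in the adult samples, but not every cluster was without overlap: the loop of Henle (LOH) had 0.747% and 0.827% at P0, 1.24% in the P21 sample and 0.574% and 0.722% in the P56 replicates. The part of this level in the fold of each peak was not tested.

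**Figure D2:**
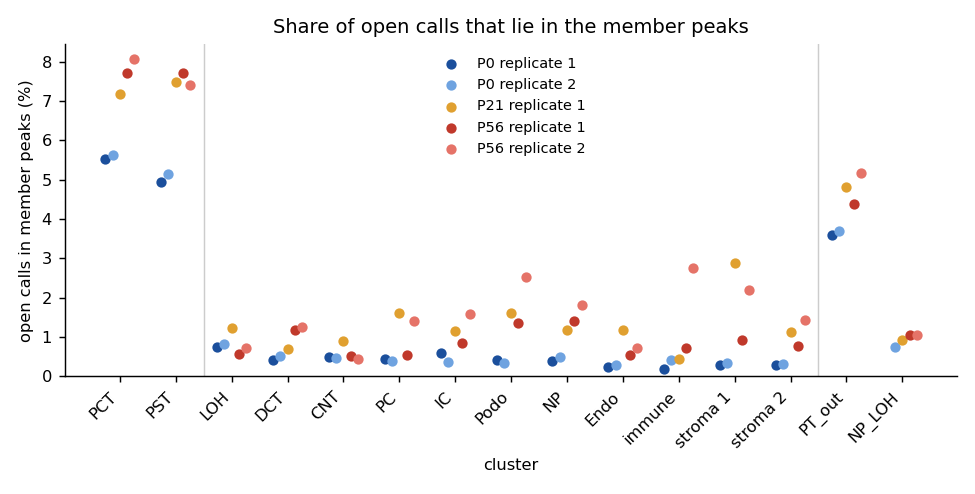
Share of open calls that lie in the 3124 peaks (vertical axis, percent) for each cluster (horizontal axis), with 1 point per sample. PCT and PST lie between 4.95% and 8.06%, PT_out between 3.60% and 5.17%, and the 11 other main clusters and NP_LOH at or below 2.89%. LOH, loop of Henle; CNT, connecting tubule; PC, principal cells; NP, nephron progenitors; Endo, endothelium.

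A cluster that the rule did not use, PT_out, held 446 nuclei, and what its name stands for is not given in the sources used here. In PT_out the peaks had a median of 12.2 CPM, and 3116 of 3124 (99.7%) were higher there than in any of the 11 other main clusters, against 22.2% of the widely open peaks and 11.2% of all peaks. The rule itself kept those 11 clusters low at these peaks and not at the others, so the contrast is partly set by the choice. The level of the peaks in PT_out was a median of 0.668 times the lower proximal value, and 218 peaks reached or passed that value. Their share of open calls was 3.60%, 3.70%, 4.82%, 4.39% and 5.17% in the same order, below PCT and PST in every sample. In NP_LOH, the other cluster left out, with 218 nuclei, the median was 1.42 CPM and the ratio 0.0606.

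Most of the peaks lay in introns or between genes, as did most of all peaks. Introns held 1450 of them (46.4%), regions between genes 735 (23.5%), exons, untranslated parts included, 727 (23.3%) and promoters, as the 5 kb before a start, 212 (6.79%). Of the widely open peaks, exons held 64.8%, introns 20.8% and regions between genes 10.9%. Of all peaks, introns held 46.7%, regions between genes 31.6%, exons 16.8% and promoters 4.92%, so these peaks were less often between genes and more often in exons than peaks at large. A transcript start was covered by 258 of the 3124 peaks (8.26%), by 58.2% of the widely open peaks and by 7.43% of all peaks. Any overlap with an exon or a start was counted, and wider peaks overlap more easily. The median width was 641 bp in these peaks, 968 bp in the widely open peaks and 414 bp over all peaks. The part of width in these shares was not tested. The median distance to the nearest protein-coding start was 9442.5 bp, against 318 bp in the widely open peaks and 20570 bp over all peaks. Peaks shared by the 2 stroma clusters under the same rule, of which there were 1536, lay farther out, at a median of 48517.5 bp, and 3.32% covered a start. The same rule kept 16 peaks for the loop of Henle with DCT, too few to describe.

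In base composition, the central 300 bp had a median of 47.3% G and C, near the 46.7% of all peaks and under the 58.0% of the widely open peaks. Among the motifs searched on both strands in the central 300 bp, the HNF4 motif CAAAGTCCA differed most from all peaks in relative terms. It was found in 170 of 3117 windows (5.45%), against 1.03% of the widely open peaks, 0.391% of the stroma pair and 0.874% of all peaks with a window of that length. Its core AAAGTCCA, which every HNF4 match contains, was in 9.21%, against 2.04% of all peaks. For HNF1, the palindrome GTTAATNATTAA was in 0.321%, against 0.103% of all peaks. GTTAATNATT, which lies within it, was in 2.12% against 0.864%, and GTTAAT, part of both, in 20.4% against 11.99%. In the widely open peaks these shares were 0.170%, 1.35% and 8.95%. Away from transcript starts, however, GTTAATNATT was less frequent in these peaks (2.03%) than in the widely open ones (2.84%). At transcript starts it was more frequent in these peaks. The palindrome and GTTAAT were not split by transcript start. The 3 shorter sequences were added after the values of the longer ones had been seen.

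Several motifs were less frequent in these peaks than in the widely open ones, many of which cover transcript starts. The SP/KLF sequence GGGGCGG was in 2.44%, against 26.4% of the widely open peaks and 5.62% of all peaks, and the AP-2 sequence GCCNNNGGC in 8.89%, against 23.6% and 10.0%. The CTCF core AGGGGGC was in 3.85%, against 10.9% and 5.38%. Away from transcript starts the AP-2 share was 8.39% both in these peaks and in all peaks. There the SP/KLF share was 2.27% in these peaks and 7.45% in the widely open ones, and the HNF4 share was 5.49% and 1.77%. At transcript starts the HNF4 share was 5.04% in the 258 peaks and 0.499% in the 10625 widely open ones. The sequence CAGCTG, an E-box, was in 17.6%, against 30.7% of the stroma pair and 21.2% of all peaks, and the STAT sequence TTCNNNGAA in 12.3%, against 12.9% and 10.4%. The AP-1 sequence TGANTCA was as frequent in these peaks (10.8%) as in all peaks (10.5%) to within 1 percentage point. With the peaks split into 4 groups of like size by their gap, of those with the widest gap to other clusters, from 5.32 to 13.3 times, 6.92% held the HNF4 motif, against 5.26%, 4.36% and 5.26% in the 3 lower groups, from the lowest gap up.

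HNF4 matches were not centred on the peaks. Of 298 matches within 500 bp of the centre of these peaks, 222 (74.5%) lay on the side of lower coordinates, and the fullest 100 bp were those from 200 to 100 bp on that side, with 92 matches, against 17 from 100 to 200 bp on the other. The same side held 64.9% of the HNF4 matches over all peaks, and 70.6% and 68.0% of the GTTAATNATT matches in these peaks and in all peaks. For AP-1, whose motif reads alike on both strands, it held 56.2% and 54.4%. Per the methods, the authors called the peaks in MACS2 with a shift of 100 and an extension of 200, and the part of these settings in the offset was not tested. With the 300 bp window moved to that side, a choice made after seeing the data, the HNF4 motif was in 6.22% of these peaks and 1.11% of all peaks.

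**Figure D3:**
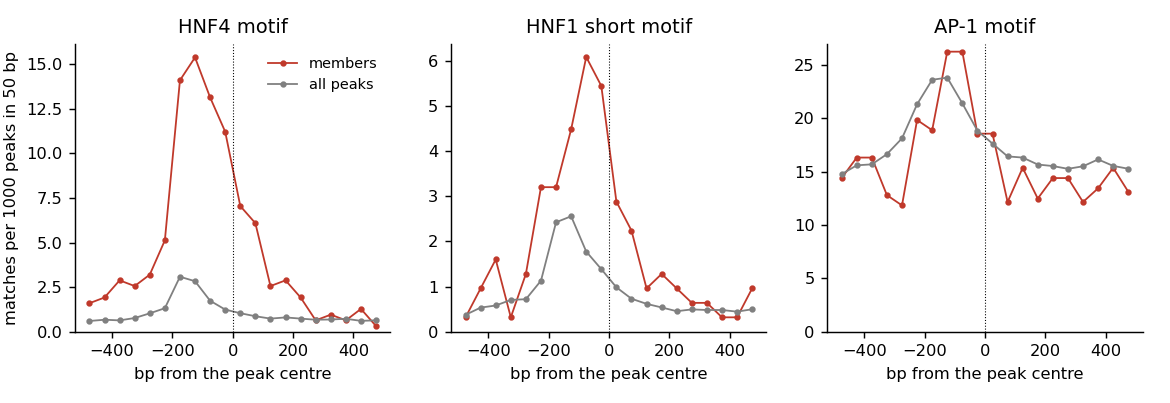
Matches per 1000 peaks (vertical axis) in bins of 50 bp against the distance from the peak centre (horizontal axis, negative towards lower coordinates), for the HNF4, the short HNF1 (GTTAATNATT) and the AP-1 motif. The 3124 peaks are red and all peaks grey, and the highest values lie left of the centre in each panel.

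The 3124 peaks were nearest to 2221 genes, of which 1625 had a single peak and 28 had 5 or more. Most peaks were assigned to Pde4d (10 of its 282 peaks), a phosphodiesterase gene, then to Acsm1 (8 of 12) and Slc22a12 (8 of 42), and to Hnf4a (7 of 25), Plekha5 (7 of 93) and Sqle (7 of 24), which share the next place. Sqle encodes an enzyme of cholesterol synthesis. Of all members, 753 (24.1%) had another within 10 kb. The longest runs with gaps of at most 10 kb held 6 peaks each, over 20300 bp at Hnf4a (chr2:163540577-163560876) and over 19797 bp at Pdzk1 and its neighbour Cd160 (chr3:96820015-96839811). Runs of 5 lay at Slc22a12, at Keg1 and Olfr1443, and at Slc27a2, a fatty acid transporter and acyl-CoA synthetase.

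A set of 10 lists of proximal tubule genes held 151 genes, of which 78 had at least 1 of the peaks, and their 170 peaks were 5.44% of the 3124, against 1.04% of all 300755 peaks assigned to the same genes. The lists were drawn up from known functions, with earlier results of these data known. Another 5 lists of other cell types (podocytes, distal nephron, collecting duct, endothelium with immune cells, and progenitors with stroma) held 50 genes and 5 of the peaks, or 0.160%, against 0.535% of all peaks. Of those 5 peaks, 4 were nearest to Plce1 (at -34724 bp from its start, where negative values lie before it), Ptpro, Aqp2 (at -11417 bp) and Uncx, and no peak fell to the list for the distal convoluted tubule and loop of Henle, which had 4 when peaks were assigned to any transcript start within 50 kb. With that assignment fatty acid oxidation had 28 peaks and cytochrome P450 and detoxification 22.

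Among transporters, the list for glucose and phosphate had 10 peaks at 5 of 8 genes. At Slc34a1, the main phosphate transporter of the brush border, the peak at -6239 bp from the start had 52.0, 56.8, 80.1, 62.4 and 77.6 CPM in PCT and 41.2, 38.2, 70.3, 43.4 and 47.1 in PST, in the order P0 replicates 1 and 2, P21 and P56 replicates 1 and 2 used throughout. At Slc20a1, a phosphate transporter of another family, an intronic peak had 15.3, 14.6, 44.8, 47.4 and 53.3 CPM in PCT and 13.3, 22.1, 50.4, 45.3 and 38.5 in PST, with the adult samples above the P0 samples in both. Organic ion transporters had 24 peaks at 11 of 20 genes, led by a peak at -5815 bp from the start of the urate transporter gene Slc22a12 (43.7 CPM as the lower value) and an intronic peak in Slc22a13 (39.5 CPM). Amino acid transporters had 18 at 7 of 14 genes, among them Slc6a13 and the glutamate transporter gene Slc1a1 (49.3 CPM). Transport of sodium, bicarbonate, water and organic acids had 23 at 12 of 17 genes, of which 3 were at Aqp1. The intronic one of these, 1972 bp past the start, had 59.6, 71.7, 68.0, 68.4 and 73.1 CPM in PCT and 46.0, 48.3, 78.3, 52.9 and 52.9 in PST.

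For protein uptake, 12 peaks lay at 5 of 9 genes, with 5 at Lrp2, which encodes megalin, and 1 at the start of its partner Cubn (34.0 CPM). An intronic Lrp2 peak had 14.6 and 20.03 CPM in PCT at P0 and 35.6, 34.3 and 36.4 in the adult samples. Among metabolic lists, fatty acid oxidation had 16 peaks at 7 of 20 genes, most of them at the acyl-CoA synthetase genes Acsm1 and Acsm2, gluconeogenesis and ammonia genesis had 17 at 6 of 11 genes, and cytochrome P450 and detoxification had 11 at 8 of 19. In gluconeogenesis, the genes with peaks included Pck1, Pcx (51.7 CPM), Fbp1, G6pc and Slc37a4, the last of which encodes the glucose-6-phosphate transporter. The start of Cyp2j5, an epoxygenase gene, had 30.7, 33.2, 53.9, 43.1 and 54.9 CPM in PCT and 15.7, 14.1, 53.5, 36.9 and 37.0 in PST. The start of Fmo1, a monooxygenase gene, had 34.4 CPM as the lower value.

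Brush border enzymes and scaffolds had 16 peaks at 8 of 15 genes, with 5 at Pdzk1, a scaffold of transporters, and 3 at Treh, which splits trehalose. The start of Treh had 8.91 and 6.88 CPM in PCT at P0 and 23.2, 36.8 and 36.9 in the adult samples. Transcription factors had 23 peaks at 9 of 18 genes, of which 7 were at Hnf4a and 5 at Trps1. The Hnf4a peak at -5803 bp from the start had 44.3, 50.8, 74.8, 58.0 and 72.8 CPM in PCT and 38.8, 42.3, 80.8, 56.3 and 53.7 in PST. The peak 10454 bp past the start had 43.3, 47.5, 60.7, 43.4 and 61.7 in PCT and 29.1, 44.3, 63.4, 35.3 and 45.3 in PST, so P0 and adult samples overlapped there.

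Between the segments, most of the peaks had like levels, which the rule itself favours. The log2 ratio of PCT over PST had a median of 0.03, with quartiles of -0.26 and 0.32, and 3008 peaks (96.3%) were within 2-fold. Over all peaks past the minimum in both clusters the quartiles were -0.11 and 0.28. PCT was higher in all 5 samples at 688 peaks (22.02%, against 20.4% of peaks past the minimum), and PST was higher in all 5 at 359 (11.5%, against 9.34%). These shares are near the background. The widest leans were a log2 ratio of 1.35 towards PCT and of -2.05 towards PST.

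The design also compares the newborn kidney, in which the tubule is still maturing, with the adult one. Most open calls behind the choice came from adult samples, so it favoured peaks open in the adult. The counts below include peaks that passed the minimum only through the adult or only through the P0 samples. All peaks tested, the background, met no such minimum. In PCT, 1593 of the 3124 peaks (51.0%) were higher in the adult samples and 65 (2.08%) were higher at P0 (edgeR quasi-likelihood test, Benjamini-Hochberg at 0.05), against 16.3% and 17.6% of the 115761 peaks tested. The median log2 difference, adult over P0, was 0.66 in these peaks and 0.02 over all. In PST, 727 of 3122 tested (23.3%) were higher in the adult samples and 13 (0.416%) at P0, against 9.04% and 6.99% of 45868, with medians of 0.52 and 0.03. Of the peaks, 657 (21.03%) were called higher in the adult samples in both segments, against 6.13% of peaks tested in both, and 10 (0.320%) higher at P0 in both, against 4.66%. The adult samples lay above both P0 samples in PCT without overlap at 1863 peaks (59.6%, against 23.2%), and below them at 301 (9.64%, against 36.6%).

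The stage counts depended on which samples chose the peaks. Of the 3124, 1641 passed the rule on the P0 samples alone and 876 on the P21 and P56 samples alone. Chosen on the P0 samples only, 2730 peaks passed, of which 24.2% were higher in adult PCT and 16.7% at P0. Chosen with the 5 samples weighted equally, the shares were 35.8% and 6.79% of 2296 peaks. Chosen on the P21 and P56 samples only, they were 51.2% and 0.818% of 978 peaks, against 51.0% and 2.08% of the 3124. For the 472 peaks kept both on the P0 samples alone and on the adult samples alone they were 34.7% and 1.06%, and for the widely open peaks, which pass the same CPM minimum, 22.1% and 2.17%. In PST, the peaks chosen on the P0 samples were higher in the adult in 6.57% and at P0 in 7.23%. Nuclei also differed in depth, with medians of 7128, 5420, 5227, 4206 and 7466 open peaks per PCT nucleus. Without P0 replicate 1 or 2, 673 and 752 peaks were higher in adult PCT (5.78% and 6.01% of all peaks tested), and without P56 replicate 1, 120 were higher at P0 (21% of all peaks tested). With library sizes alone in place of scaling factors, the median over all peaks moved to -0.22, 1247 of these peaks were higher in adult PCT and 144 at P0, and over all peaks 13294 were higher in the adult and 24693 at P0, against 18814 and 20408 with the factors. With each nucleus thinned to 1000 open peaks, 495 peaks were higher in adult PCT and 51 at P0, against 6.68% and 4.97% of all peaks tested, and the median log2 difference was 0.40. In PST thinning left 479 of the peaks to test, of which 2 were called higher in the adult, against 0.301% of all peaks tested. With either P0 sample left out, no PST peak was called by edgeR. Without P0 replicate 1 or 2 the median log2 difference in PST was 0.65 and 0.70, against 0.13 and 0.15 over all tested.

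Within the lists of proximal genes, 81 of 170 peaks were higher in adult PCT and 2 at P0, with a median log2 difference of 0.62. That is near the 51.0% of all 3124 peaks, over a background of 16.3% of peaks tested, and so is no result about the lists. By list, the peaks higher in adult PCT were 7 of 10 for glucose and phosphate, 11 of 24 for organic ions, 8 of 18 for amino acids, 9 of 23 for sodium, bicarbonate, water and organic acids, 3 of 12 for endocytosis, 10 of 16 for fatty acid oxidation, 6 of 17 for gluconeogenesis, 7 of 11 for P450 and detoxification, 7 of 16 for the brush border and 13 of 23 for transcription factors, to be read against the same 51.0%. The 2 that were higher at P0 lay at Slc22a13 and Acadm. In PST, 38 of the 170 were higher in the adult samples, near the 23.3% of all 3124 peaks, over a background of 9.04%. The Slc20a1 peak rose in both segments, with a log2 difference of 1.89 ± 0.23 (SE, adjusted p = 0.00011, edgeR) in PCT and 1.23 ± 0.27 (adjusted p = 0.0090) in PST. The intronic Acsm2 peak rose by 1.65 ± 0.24 (adjusted p = 0.00033) and 1.51 ± 0.28 (adjusted p = 0.0046). The PST calls at Slc20a1 and Acsm2 needed both P0 samples, as did every PST call. The Treh start passed the minimum in PCT only through the adult samples, and in PST its P0 values were 10.9 and 7.04 CPM, around that minimum. Its differences of 2.22 ± 0.29 in PCT and 2.13 ± 0.30 in PST were thus favoured by the choice and are given with no p.

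The Pck1 start differed by 0.64 ± 0.21 in PCT (adjusted p = 0.030, edgeR) and by 0.55 ± 0.25 in PST (adjusted p = 0.15). The PCT call at Pck1 was lost after thinning (edgeR adjusted p = 0.26) and with any sample but P56 replicate 1 left out (adjusted p from 0.094 to 0.26), with a log2 difference of 0.53 after thinning and from 0.55 to 0.66 in those fits. The Aqp1 start differed by 0.17 ± 0.22 (adjusted p = 0.58) and its sign turned under thinning, with library sizes alone and without P0 replicate 1. Near Slc6a13 the difference was 0.39 ± 0.22 (adjusted p = 0.18), and it was -0.06 after thinning. The upstream Hnf4a peak differed by 0.72 ± 0.23 (adjusted p = 0.026) in PCT and 0.56 ± 0.26 (adjusted p = 0.16) in PST, and the Lrp2 intron by 1.23 ± 0.22 (adjusted p = 0.0013) and 0.65 ± 0.25 (adjusted p = 0.091). The Hnf4a call in PCT was lost after thinning (0.44, adjusted p = 0.39, edgeR) and with any sample but P56 replicate 1 left out (0.58 to 0.87, adjusted p from 0.087 to 0.29). The Lrp2 call was lost after thinning (0.74, adjusted p = 0.18, edgeR) and without P0 replicate 1 (1.01, adjusted p = 0.073). Peaks with the HNF4 motif were higher in adult PCT at 83 of 170 (48.8%) and those without at 51.1%, over a background of 16.3% of peaks tested.

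The 5 peaks with the largest rise in PCT were almost closed at P0. They passed the CPM minimum only through the adult samples, so a rise was fixed by the choice, and their values are a description. An exonic peak in Frmd4b (chr6:97449869-97450347) had 0.247, 0, 25.2, 26.9 and 27.7 CPM in PCT and 1.21, 0, 19.3, 26.7 and 17.0 in PST. From 1 open call at P0 and 998 in the adult, the ratio of summed CPM in PCT was 198, with an exact 95% interval of 35.5 to 7839 that covers counting error only. A Fam13a intron peak (chr6:58968389-58968904) had 0.990, 0.598, 29.8, 40.7 and 36.8 CPM in PCT, a ratio of 44.6 (20.4 to 122). A peak at -422 bp from the start of P4ha2, a collagen-modifying enzyme gene, had a ratio of 110.1 (19.7 to 4355), and a peak 297364 bp from Htr7 a ratio of 50.2 (17.1 to 244). Near Osbpl9 no open call was seen in PCT at P0 and 458 in the adult, so the level was at least 30.3-fold higher in the adult, with 3 calls over the group as the floor, while PST had 6.06 and 0 CPM at P0 and 18.03, 17.8 and 16.0 in the adult samples. In the 11 other clusters summed, these 5 peaks were also higher in the adult samples, for example 0.234 and 0.558 against 2.80, 4.26 and 3.53 CPM at Frmd4b.

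The largest falls in PCT were at Crim1, Snrnp200, Slc30a6, Phlpp1 and Fras1. All adult PCT samples were under 10 CPM at these 5 peaks, which passed the minimum in PCT only through the P0 samples, so a fall in PCT was fixed by the choice and is given with no p. At Phlpp1, which encodes a phosphatase, the peak at -68962 bp from the start had 34.1 and 38.6 CPM in PCT at P0 and 6.79, 7.90 and 9.78 in the adult samples, and in PST 35.1 and 36.2 against 13.7, 6.80 and 13.9. The fitted log2 difference was -1.94 ± 0.23 (SE) in PCT and -1.69 ± 0.33 in PST. At the intronic peak of the zinc transporter gene Slc30a6 it was -1.95 ± 0.24 and -1.55 ± 0.37. The Fras1 peak whose HNF4 motif is printed above, in a gene for a basement membrane protein, had 32.7 and 30.8 CPM in PCT at P0 and 6.79, 9.67 and 6.19 in the adult samples. In PST it had 35.1 and 32.2 against 16.8, 16.0 and 18.6. The log2 difference was -1.90 ± 0.22 in PCT and -1.01 ± 0.23 in PST. In the 11 other clusters summed, the Phlpp1 and Fras1 peaks stayed between 0.956 and 1.85 CPM in all samples.

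**Figure D4:**
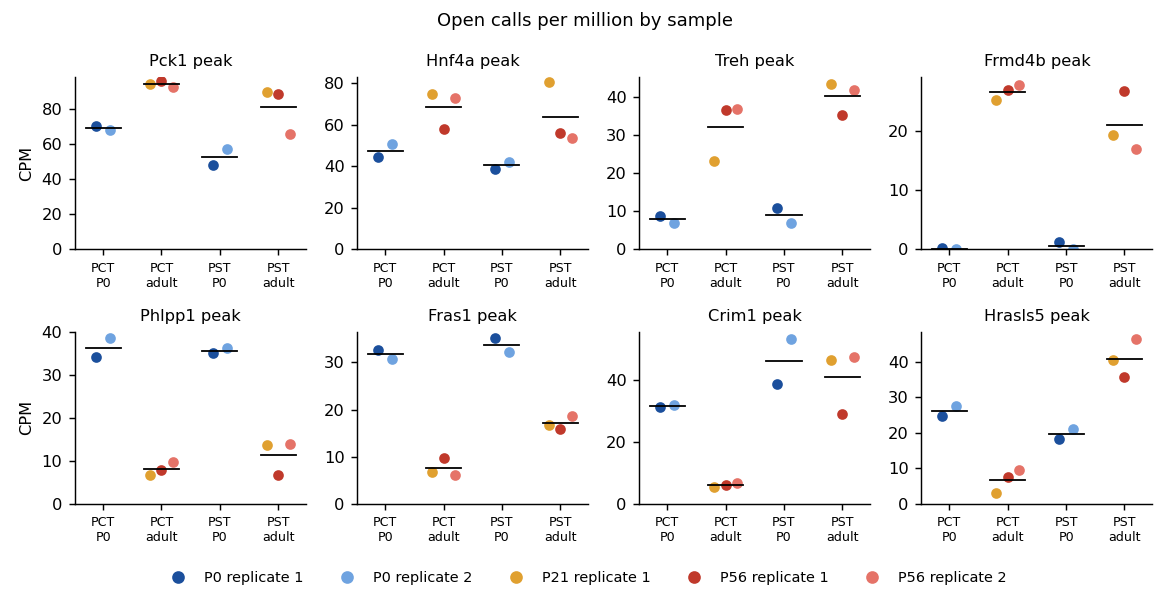
CPM (vertical axis) of 8 of the peaks in PCT and PST at P0 and in the adult samples, with 1 point per sample and the group mean as a bar. Adult values are above P0 values at Treh and Frmd4b in both segments and below at Phlpp1 and Fras1, and at Crim1 and Hrasls5 they are below in PCT. In PST the adult values are above the P0 values at Hrasls5 and overlap them at Crim1.

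The stage difference was also compared between the segments, with the sample as a block. It was greater in PST, in the sense of a more adult-ward change, at 51 peaks (1.63%, against 2.39% of 97662 tested), and greater in PCT at 12 (0.384%, against 0.801%). Both shares are under the background. Without P0 replicate 1 or 2 the 51 became 13 and 15, against 0.588% and 0.665% of all peaks tested, and without P56 replicate 1 they became 104, against 3.87%. DESeq2 called 8 in place of the 51 and 3 in place of the 12, against 0.771% and 0.225% of all peaks tested. The background thus moved with these counts. Of the 51, 28 were lower in adult PCT and higher in adult PST as fitted. The 3 with the smallest p were 2 peaks near Hrasls5, an acyltransferase gene, and the Crim1 peak.

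The Hrasls5 peak at chr19:7632920-7634385 had 24.7 and 27.5 CPM in PCT at P0 and 3.07, 7.53 and 9.60 in the adult samples, while PST had 18.2 and 21.1 at P0 and 40.4, 35.6 and 46.3 in the adult. The fitted log2 difference was -1.72 ± 0.35 in PCT and 1.01 ± 0.25 in PST, and the segments differed by 2.99 ± 0.35. The peak at chr19:7644653-7645310 showed the same crossing, from 20.8 and 25.4 down to 4.71, 8.83 and 8.45 CPM in PCT and from 13.3 and 24.1 up to 32.3, 39.5 and 37.7 in PST, with a difference of 2.62 ± 0.32. Summed over the samples, the lower proximal level of these peaks was 10.5 and 10.2 CPM, close to the minimum of the rule, which they passed in PCT only through the P0 samples. Their lower adult value in PCT was therefore fixed by the choice, as at Crim1 and Snrnp200, and the differences are given with no p. At Crim1, a transmembrane gene that binds growth factors of the BMP family, the peak at -3194 bp from the start (chr17:78347097-78348294) had 31.4 and 32.0 CPM in PCT at P0 and 5.48, 6.13 and 6.59 in the adult samples, but 38.8, 53.3, 46.6, 29.1 and 47.4 in PST. The difference between the segments was 2.20 ± 0.27. Snrnp200, a spliceosome helicase gene, had a log2 difference of -2.17 ± 0.22 in PCT and -0.41 ± 0.21 in PST.

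**Figure D5:**
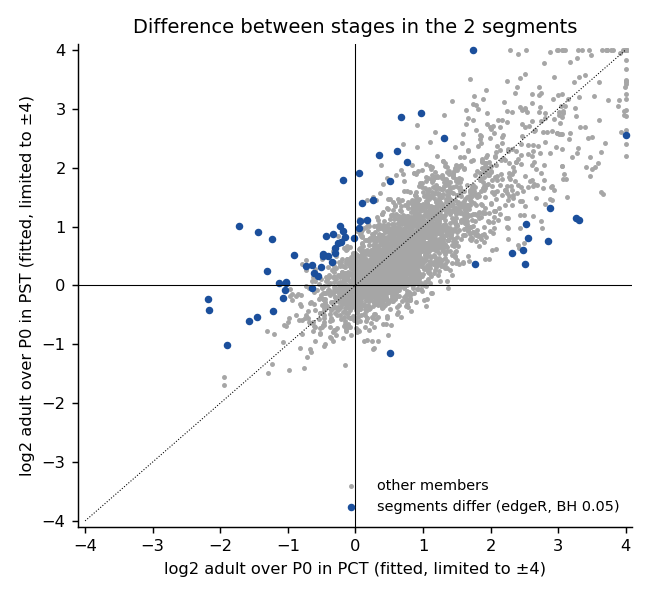
Fitted log2 difference of adult over P0 in PCT (horizontal axis) and PST (vertical axis) for the peaks tested in both, with values beyond 4 drawn at 4. Blue points are the peaks whose difference between the segments passed the test, 51 with a greater difference in PST and 12 with a greater one in PCT, and the dotted line marks equal change.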

How the data were processed

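The authors ran Cell Ranger ATAC 1.1.0 against mm10, clustered the nuclei with SnapATAC and Harmony, and called peaks in MACS2 for each cell type on nuclei pooled over samples before merging them. The deposited matrix holds counts of a binary kind, 1 open call for a nucleus with a fragment in a peak, for 28316 nuclei and 300755 peaks. Cluster and sample names are those of the authors' metadata. Removal of doublets from the snATAC-seq nuclei is not given in the sources used here, and no doublet caller was run.

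Open calls were summed per cluster and sample, and the rule used a minimum of 10 CPM and a fold of 3. Peaks were assigned to the nearest protein-coding transcript start and classed in the order exon, intron, promoter (5 kb before a start) and distal. Motifs were searched in the central 300 bp, with 18 motifs listed and 3 added. Stage was tested on the sums of PCT and of PST by quasi-likelihood in edgeR 4.0.16 (R 4.3.3), and the difference between segments with the sample as a block, after filterByExpr, with adjustment over all peaks tested. Each SE given with ± was worked back from the log2 difference and the F statistic of that test. DESeq2 1.42.0, other scalings, no filter, thinned nuclei and each sample left out were alternatives. Scripts were tested on simulated data. The named peaks are the 8 with the highest lower CPM, the 5 with the highest fold at 20 CPM or more, the 2 highest for each gene list, the 5 largest changes each way, the 3 smallest p for the segment difference, the 3 nearest each side of each threshold and the genes with most peaks. The members and lists were chosen with earlier results of these data known. The embeddings and the single-cell RNA-seq labels were not used here, and peaks on chromosome 18 were counted but not named. Some named results are not reported here.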

Additional observations from a re-analysis of the deposited data

Results flagged for a closer look

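The stage difference itself differed between the segments, by the edgeR test of the interaction, at 51 peaks where it was greater in PST (1.63%, against 2.39% of all peaks tested) and at 12 where it was greater in PCT (0.384%, against 0.801%), both under the background. Among them, the log2 difference between the segments was 2.99 at the Hrasls5 peak starting at 7632920, 2.62 at the Hrasls5 peak starting at 7644653 and 2.20 at the Crim1 peak starting at 78347097. These 3 peaks passed the CPM minimum in PCT only through the P0 samples, so their lower adult value in PCT was fixed by the choice. PT_out, a cluster that the rule and the tests of stage did not use, had a median of 12.2 CPM in the peaks. It was above each of the 11 other main clusters at 3116 of 3124 peaks (99.7%), against 11.2% of all peaks. The rule itself kept those 11 clusters low at the 3124 peaks, so this contrast is partly set by the choice.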

How the results depend on the processing

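The number of peaks was 4922 with a minimum of 5 CPM, 1271 with 20 CPM, 976 with a fold of 5 and 978 on the P21 and P56 samples only, and between 2596 and 3432 with 1 sample left out. Shares in brackets are those of all peaks tested in the same fit. In PCT, peaks higher in the adult numbered 495 after thinning (6.68%) and 673 to 1779 with 1 sample left out (5.78% to 21.2%). Those higher at P0 numbered 41 with DESeq2 (10.7%), 144 with library sizes alone (21.3%), 20 without the filter (5.85%) and 15 to 120 with 1 sample left out (4.71% to 21%). In PST, peaks higher in the adult numbered 1917 without the filter (5.93%), 2 after thinning (0.301%) and 0 to 916 with 1 sample left out (0 to 10.9%). Those higher at P0 numbered 25 with library sizes alone (7.78%), 1 without the filter (0.907%), 0 after thinning (0.368%) and 0 to 24 with 1 sample left out (0 to 9.46%). The counts of 0 came from edgeR without either P0 sample and, for peaks higher at P0, after thinning. Without P0 replicate 1 or 2, the PST median log2 difference was 0.65 and 0.70 in these peaks, against 0.13 and 0.15 over all tested. The stage difference was greater in PST at 8 peaks with DESeq2 (0.771%), 30 without the filter (0.601%) and 13 to 104 with 1 sample left out (0.588% to 3.87%), and greater in PCT at 3 with DESeq2 (0.225%) and 1 to 19 with 1 sample left out (0.104% to 1.3%). With the replicate block, these were 8 (0.554%) and 1 (0.121%), while PCT gave 1631 (16.1%) and 62 (17.4%) and PST 720 (9.24%) and 15 (6.85%). Deviations of P0 and P56 replicates 1 from their stage means had an r of 0.0628 in PCT and 0.0434 in PST. With 2 samples per stage, the opposite pairing gives the same r with its sign turned (-0.0628 and -0.0434). Such an r cannot show whether the samples were paired, and the numbers were not taken to pair them. Introns and regions between genes held 69.9% of the peaks, 60.02% with promoters taken first and 73.8% with promoters of 2 kb, and the HNF4 motif was in 8.67% of whole peaks. For 52 named peaks, only the stage difference in PCT was followed under the alternatives. The 52 include peaks whose rise or fall was fixed by the choice, so calls kept there are no support. Of the 572 alternative values, 455 kept direction and side of the threshold, and 78 lost and 27 gained the call. Another 12 turned sign, none of them called. After thinning these were Slc22a12 (-0.036), Slc1a1 (-0.073), the Hnf4a peak past the start (-0.30), Akap9 (-0.085), the Aqp1 start (-0.46), Slc6a13 (-0.059), Chd2 (-0.13) and Lpar2 (-0.21). The others were Spint1 without the filter (0.12), the Aqp1 start (-0.065) and Lpar2 (-0.013) with library sizes alone, and the Aqp1 start with 1 sample left out (-0.00996 to 0.417, lowest without P0 replicate 1). The causes were not tested. PST rests on 83 and 112 nuclei at P0, which limits what it can show.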
